A study of Homo sapiens with 9 samples.

Results

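The Wnt pathway genes are a list of 50 genes for Wnt ligands, receptors, the cytoplasmic machinery, nuclear effectors and feedback targets, and they were found by symbol in the deposited expression table of 16586 genes. Of the 50, 44 are in the table and 39 passed the filter on low values and were tested. WLS, FZD8, LGR5, TNIK, SFRP1 and DKK1 were not analysed here. The study measured RNA by sequencing in Z138, an established mantle cell lymphoma line, a B cell cancer that often expresses the transcription factor SOX11. It held 3 groups with 3 libraries each: cells labelled WT, cells labelled SOX11KO (the knockout), and cells labelled SOX11KO+SOX11Rescue, which carry the knockout with SOX11 returned (the rescue). All 9 libraries came from the same line grown in RPMI-1640 with fetal bovine serum. The sources used here do not say how SOX11 was returned, whether replicates were separate cultures, or whether either edited population grew from a single clone. Differences between clones and differences due to SOX11 cannot be told apart, and p-values measure only the spread between these libraries, which may be technical.

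Wnt proteins are secreted lipid-modified ligands that bind Frizzled receptors on the cell surface. With the co-receptors LRP5 and LRP6 they act through Dishevelled proteins to stop a complex of Axin, APC, casein kinase and GSK3 from marking beta-catenin for destruction, so that beta-catenin reaches TCF and LEF factors in the nucleus. With ROR1, ROR2, PTK7 or RYK as co-receptors, Wnts such as WNT5A and WNT5B act without beta-catenin on cell polarity and movement. In the B lineage, LEF1 is a factor of early precursors, and mantle cell lymphoma and chronic lymphocytic leukaemia cells commonly carry ROR1.

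Values below are normalized counts, in the order of replicates 1, 2 and 3, which are also batches 1, 2 and 3 of the labels. Means are given ± SD with n = 3 libraries. They were recovered from the deposited variance-stabilized log2 values, on which the tests were run with limma. A gene is called higher or lower where the Benjamini-Hochberg adjusted p over the 11542 genes tested was under 0.05. Positions are those of GENCODE release 29 on GRCh38. Folds are ratios of mean normalized counts; log2 differences are on the deposited scale, which compresses low genes. Estimated depth was 30800000 to 40800000 reads per library. Batch 2 stood apart on the second principal component (17.3% of the variance), so each call was also made with the batch as a block in the fit, here the replicate block, and without each library and each batch. SOX11 was measured at 3800.4, 3845 and 3003 in wild-type, 901, 1335 and 862 in knockout and 12818, 13849 and 12715 in rescue libraries. The knockout libraries thus kept 29.1% of the wild-type mean, and the rescue libraries held 369.8% of it. The groups did not overlap, and the two-sided exact permutation test gave p = 0.1 in all 3 comparisons, which 3 against 3 libraries cannot go below. In bulk RNA, fewer cells of a type and less RNA per cell cannot be told apart.

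By role, 3 of 6 tested Frizzled receptors, 3 of 4 co-receptors, 1 of 3 genes of receptor turnover, 3 of 10 of the cytoplasmic machinery, 1 of 2 feedback inhibitors, 2 of 9 nuclear effectors and 1 of 5 ligand genes were lower in the knockout. Of these 14 genes 11 were higher again in the rescue. In the knockout against wild type, 14 of the 39 tested genes were lower (WNT16, FZD2, FZD6, FZD7, LRP5, LRP6, ROR1, LGR4, DVL2, DVL3, CSNK1E, AXIN2, TCF7 and BCL9) and 3 were higher (WNT5B, NKD2 and TLE1). Over all tested genes the background was 7.37% lower and 5.36% higher, against 35.9% and 7.69% for the Wnt genes. Between knockout and rescue 12 of the 39 rose and 3 fell, with a background of 11.5% higher and 10.7% lower. Between wild type and rescue 1 was higher and 3 were lower in the rescue, with a background of 2.3% higher and 1.78% lower. The shares of higher genes in the knockout, of lower genes in the rescue against the knockout and of higher genes in the rescue against wild type are near the background. FZD6 was tested only because its wild-type libraries passed the filter, and LGR4 passed it through no knockout library. The list was chosen with earlier results of these data known, so these counts and shares describe it and do not test it. In either direction the background was 12.7%, 22.1% and 4.07% in the 3 comparisons, against 43.6%, 38.5% and 10.3% of the Wnt genes. The knockout libraries all lay below those of wild type for 17 of the 39 genes and above them for 3 (background 14.8% and 14.7%), those of the rescue above the knockout for 16 and below for 7 (background 20% and 21.8%), and those of the rescue above wild type for 4 and below for 6 (background 10.3% and 10.4%). Each call had the same sign in the 3 batches. Single libraries and batches moved the counts: the 14 lower genes in the knockout became 9 without knockout replicate 1 or 2, 7 without wild-type replicate 1 or batch 3 and 6 without batch 1, and the 3 higher genes became 1 without batch 1. The 12 higher genes in the rescue against the knockout became 7 without batch 1 and 6 without batch 3, and the 3 lower genes became 1 without either of these, 5 without wild-type replicate 2 and 6 without batch 2. The 1 gene above wild type in the rescue was lost in most of these fits, and the 3 genes below wild type became 1 without batch 3.

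**Figure D1:**
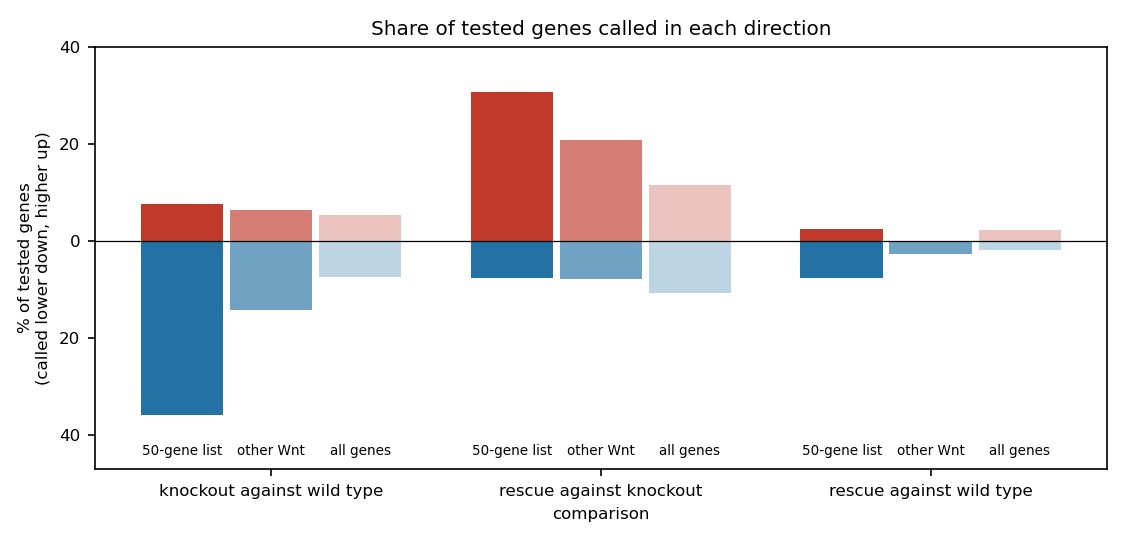
Bars give the percentage of tested genes called higher (up, red) or lower (down, blue) in each comparison, for the 50-gene list (39 tested), for other Wnt pathway genes (77 tested) and for all 11542 genes. The largest bar is the 35.9% of the list that was lower in the knockout against wild type.

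The typical size of a difference was also above that of all genes, in a list chosen with earlier results known. The median log2 difference of the 39 genes in the knockout against wild type was -0.08 and its median size 0.20, against 0.0048 and 0.08 over all tested genes. In the rescue against the knockout the median was 0.07 and the median size 0.20, against -0.0065 and 0.10. In the rescue against wild type the median size was 0.08 against 0.06. With the replicate block 21 Wnt genes were called in the knockout against wild type, 17 of them lower (background 21.5% in either direction), 20 in the rescue against the knockout, 14 of them higher (background 31.2%), and 5 in the rescue against wild type, 3 of them lower (background 8.06%). Without batch 2, the lowest of each group on the second principal component, the knockout against wild type gave 10 lower and 3 higher. The rescue against the knockout then gave 10 higher and 6 lower. The comparisons share libraries (the knockout libraries enter the first and the second), so their values are given side by side and not as separate evidence of each other.

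**Figure D2:**
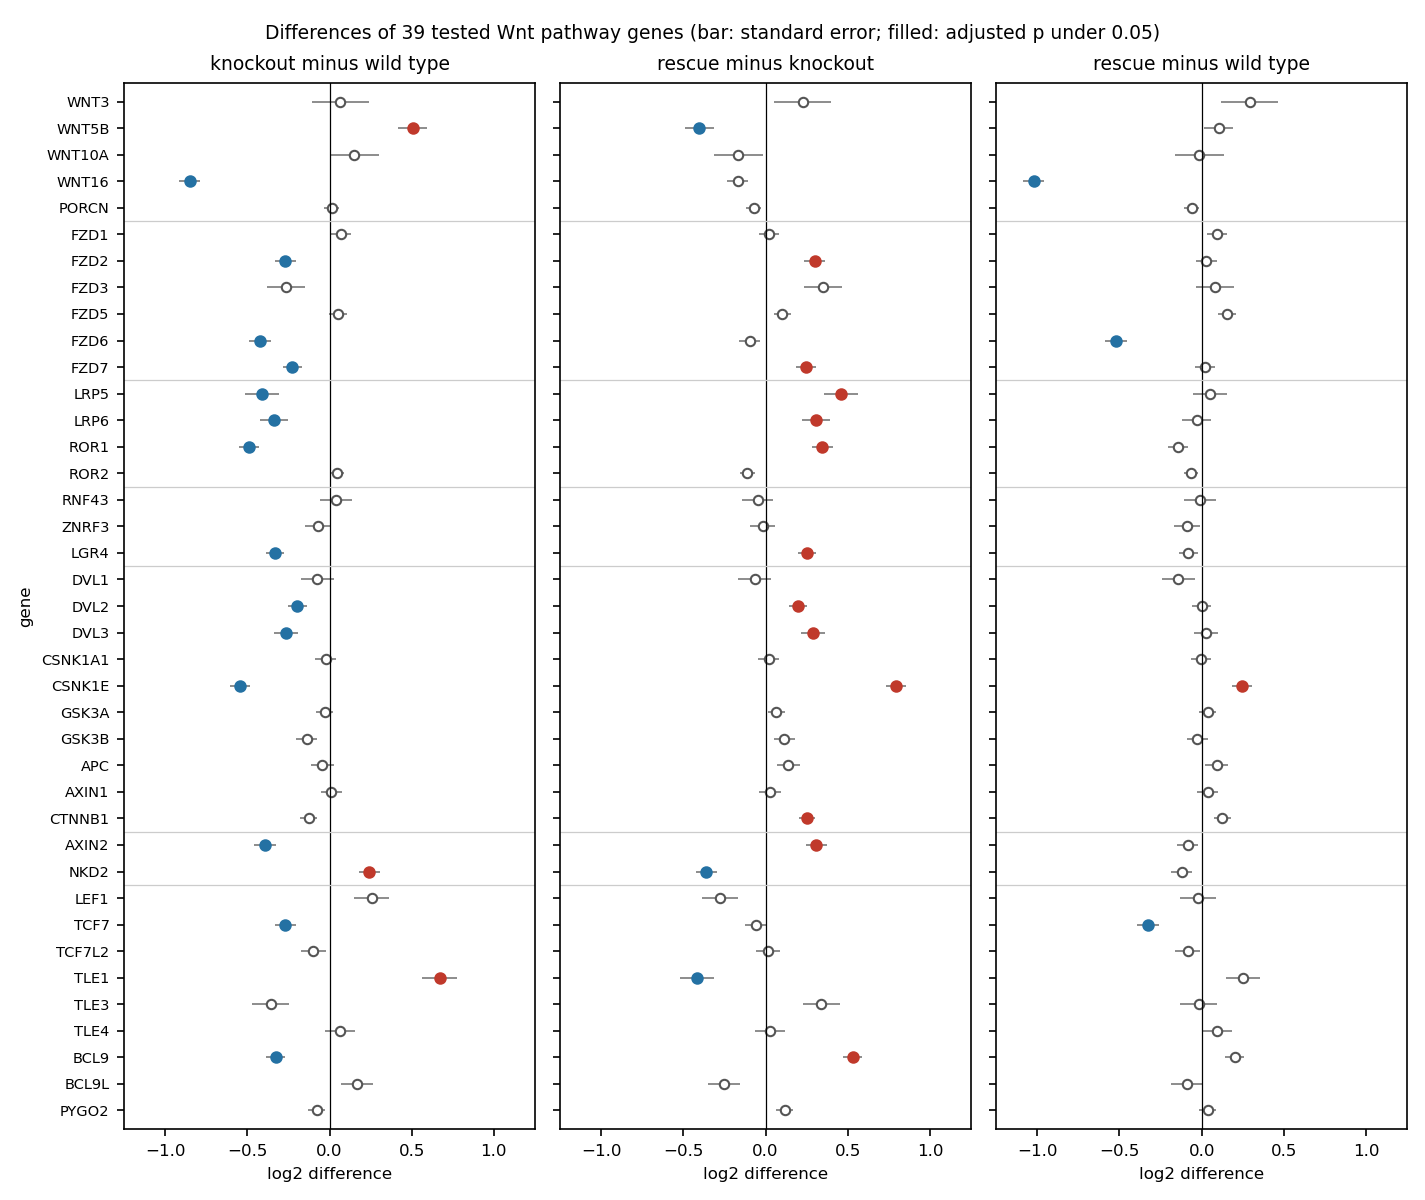
Log2 differences on the deposited scale for the 39 tested Wnt genes, grouped by role, in the 3 comparisons. Points are estimates, bars their standard errors, and filled points passed an adjusted p of 0.05 (red higher, blue lower); 11 of the 14 blue points in the left panel have a red point in the middle panel, and WNT16, FZD6 and TCF7 are blue in the right panel.

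Promoter sequences are shown for 5 genes that were called in both the knockout against wild type and the rescue against the knockout and whose call in at least 1 of those comparisons held under every alternative that could be fitted: CSNK1E, ROR1, LGR4 and BCL9, which were lower in the knockout, and TLE1, which was higher. RefSeq windows on GRCh38.p14 hold 250 bases before to 50 after the start of each gene, and 10 of the 14 genes called in both comparisons have 1 or more of them, 12 windows in all. They were searched on both strands for the TCF/LEF motifs CTTTGAA and CTTTGAT and for the SOX motifs AACAAAG and AACAATG. The reverse complement of AACAAAG begins with the same CTTTG as the TCF/LEF motifs but is not one of them. Of all 35116 windows in the table, 6.86% hold a TCF/LEF match and 8.22% a SOX match. Among the 12 windows, 0 held a TCF/LEF match and 1 a SOX match, in the first CSNK1E window, where the reverse complement of AACAAAG starts 220 bases before the gene's start and is in capitals below. A match is a description of these letters and not a binding site, and the other windows simply do not hold these letters. The windows read 5′ to 3′ along the gene.
CSNK1E, first start (chr22:38318035-38318334, minus strand): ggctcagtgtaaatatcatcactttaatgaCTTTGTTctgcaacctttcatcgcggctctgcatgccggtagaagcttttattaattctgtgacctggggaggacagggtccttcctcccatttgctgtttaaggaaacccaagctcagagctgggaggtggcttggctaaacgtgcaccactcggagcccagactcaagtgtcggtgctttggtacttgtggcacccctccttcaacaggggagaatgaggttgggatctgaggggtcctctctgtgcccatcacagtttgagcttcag
CSNK1E, second start (chr22:38317384-38317683, minus strand): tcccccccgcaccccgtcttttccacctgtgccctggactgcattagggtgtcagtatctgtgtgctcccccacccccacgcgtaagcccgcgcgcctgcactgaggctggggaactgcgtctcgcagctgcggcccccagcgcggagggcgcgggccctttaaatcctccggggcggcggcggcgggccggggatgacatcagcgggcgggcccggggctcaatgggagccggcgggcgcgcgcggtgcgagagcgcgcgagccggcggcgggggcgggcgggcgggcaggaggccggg
ROR1 (chr1:63773767-63774066, plus strand): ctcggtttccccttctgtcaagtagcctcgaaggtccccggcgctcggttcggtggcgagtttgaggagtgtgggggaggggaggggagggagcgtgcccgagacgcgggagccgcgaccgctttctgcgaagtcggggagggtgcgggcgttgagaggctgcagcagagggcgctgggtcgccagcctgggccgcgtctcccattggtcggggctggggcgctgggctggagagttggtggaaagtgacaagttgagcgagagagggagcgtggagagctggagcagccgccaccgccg
LGR4 (chr11:27472741-27473040, minus strand): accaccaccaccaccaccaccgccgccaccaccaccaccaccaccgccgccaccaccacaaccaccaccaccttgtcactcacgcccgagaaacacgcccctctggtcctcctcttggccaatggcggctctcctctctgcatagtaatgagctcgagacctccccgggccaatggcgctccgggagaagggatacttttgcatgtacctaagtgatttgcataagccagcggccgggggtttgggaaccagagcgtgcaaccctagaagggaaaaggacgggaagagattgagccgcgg
BCL9 (chr1:147541251-147541550, plus strand): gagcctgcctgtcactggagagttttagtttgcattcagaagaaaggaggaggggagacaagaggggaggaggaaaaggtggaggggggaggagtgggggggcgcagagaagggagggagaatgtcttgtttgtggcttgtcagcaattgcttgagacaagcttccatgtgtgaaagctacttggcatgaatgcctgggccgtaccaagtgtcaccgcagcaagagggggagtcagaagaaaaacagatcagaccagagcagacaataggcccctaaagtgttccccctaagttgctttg
TLE1 (chr9:81689498-81689797, minus strand): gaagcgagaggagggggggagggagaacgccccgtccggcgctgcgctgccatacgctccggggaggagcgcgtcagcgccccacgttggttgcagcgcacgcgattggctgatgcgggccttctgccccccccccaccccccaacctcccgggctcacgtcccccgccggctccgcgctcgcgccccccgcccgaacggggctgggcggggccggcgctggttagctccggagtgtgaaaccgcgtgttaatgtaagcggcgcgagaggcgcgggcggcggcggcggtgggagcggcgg
By GC content these windows differ: 51.7% and 76.3% for the CSNK1E starts, 69% for ROR1, 61.3% for LGR4, 53% for BCL9 and 76% for TLE1.

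Ligands were read at very unequal levels, and the 2 that were called moved in opposite directions in the knockout. WNT16, a ligand of the blood and skeletal lineages (ENSG00000002745.13, chromosome 7, 121325367 to 121341104, plus strand), had normalized counts of 1835, 2109.5 and 1705 in wild-type, 729, 814 and 764 in knockout and 619, 589 and 656 in rescue libraries. Its wild-type libraries lie above the other 6, and the knockout and rescue libraries do not overlap either, the rescue being the lowest. WNT16 fell 2.45-fold in the knockout, by 0.85 (SE 0.064, adjusted p = 8.65e-06) on the log2 scale, and was 3.03-fold lower than wild type in the rescue (adjusted p = 6.31e-06). The difference of the rescue from the knockout was close to the threshold (adjusted p = 0.0814, and adjusted p = 0.0501 with the replicate block) and passed on log2(CPM + 0.25), with only the 2 groups compared and without wild-type library 2 (adjusted p from 0.0344 to 0.0483). Both WNT16 calls held under every alternative tried. WNT5B, a ligand that acts mostly without beta-catenin (ENSG00000111186.13, chromosome 12, 1529891 to 1647243, plus strand), had 2058, 2058 and 2608 in wild-type, 3432, 3410.1 and 3537 in knockout and 2338, 2169.6 and 2873 in rescue libraries. All 3 knockout libraries are above the other 6, and wild type and rescue overlap. WNT5B rose 1.54-fold in the knockout (adjusted p = 0.00294) and fell 1.41-fold in the rescue against it (adjusted p = 0.00759). Both WNT5B calls were lost without batch 1: in the knockout (adjusted p = 0.0772, with 0.000131 to 0.0772 over all alternatives) and in the rescue (adjusted p = 0.0911, with 0.000407 to 0.0911 over all alternatives).

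The other ligands and the ligand-processing enzyme were not called. WNT10A, a ligand of skin and its appendages, had 796, 512 and 795 in wild-type, 1022, 532 and 1010.1 in knockout and 760.2, 513 and 793 in rescue libraries. In each group its batch 2 library was the lowest. With the replicate block and without batch 2 it was called lower in the rescue against the knockout (adjusted p from 0.021 to 0.0438; 0.021 to 0.846 over all alternatives). Without batch 2 it was also called higher in the knockout (adjusted p = 0.0419, and 0.573 with all libraries). WNT3, a ligand that signals through beta-catenin, ranged from 1.99 to 90.6 within wild type and from 0 to 94.4 within the knockout, so libraries of a group differed more than the groups. PORCN, the enzyme that attaches the lipid to Wnts, averaged 202 ± 13.1, 207 ± 16.5 and 178 ± 10.9 in wild type, knockout and rescue (adjusted p = 0.303 for the rescue against the knockout). WNT5A, the close relative of WNT5B, was too low to be tested, with 13.9, 5.49 and 5.54 in wild-type, 20.3, 22.7 and 28.2 in knockout and 1.49, 0 and 12.6 in rescue libraries. Its knockout libraries were the highest of the 9, as those of WNT5B were.

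Among Frizzled receptors, which bind Wnts directly, 3 of 6 tested genes fell in the knockout, FZD6 among them, which the filter had passed only through wild type. FZD2 and FZD7 rose in the rescue against the knockout. FZD2 (ENSG00000180340.7, chromosome 17, 44557459 to 44559570, plus strand) was measured at 1364, 1201 and 1199.9 in wild-type, 993, 845 and 974 in knockout and 1194, 1280.5 and 1407 in rescue libraries. The 3 knockout libraries are the lowest of the 9, and wild type and rescue overlap. It fell 1.34-fold (adjusted p = 0.0177) and rose 1.38-fold in the rescue (adjusted p = 0.00659). FZD7, its paralog (ENSG00000155760.2, chromosome 2, 202034587 to 202038445, plus strand), was lower at 117, 83.3 and 59.7 in wild-type, 38.8, 47.5 and 26.2 in knockout and 99.5, 83.6 and 88.7 in rescue libraries. It shows the same order of groups, with the knockout libraries below the other 6, a 2.31-fold fall (adjusted p = 0.0294) and a 2.42-fold rise (adjusted p = 0.0127). FZD6, a Frizzled linked to planar polarity and to restraint of beta-catenin signalling (ENSG00000164930.12, chromosome 8, 103298433 to 103332866, plus strand), had 75.6, 156 and 98.9 in wild-type, 19.6, 26.6 and 14.5 in knockout and 9.44, 16.7 and 4.92 in rescue libraries. Here the rescue did not go back: FZD6 fell 5.44-fold in the knockout (adjusted p = 0.0015), was 10.6-fold lower than wild type in the rescue (adjusted p = 0.00102), and rescue and knockout libraries overlapped (adjusted p = 0.335, and 0.0431 with quantile normalization). In the knockout FZD2 lost its call with wild-type library 1, knockout library 2 or any 1 batch left out (adjusted p from 0.0638 to 0.126, with 0.00861 to 0.126 over all alternatives). FZD7 lost it with wild-type library 1 or 2, knockout library 1 or 3 or any 1 batch left out, or with quantile normalization or with only the 2 groups compared (adjusted p from 0.0576 to 0.235, with 0.0111 to 0.235 over all alternatives). Both FZD2 and FZD7 were lower in each batch, by 0.30, 0.32 and 0.19 (log2) for FZD2 and 0.33, 0.16 and 0.19 (log2) for FZD7. The FZD2 rise in the rescue was lost with batch 3 left out (adjusted p = 0.0961, with 0.00319 to 0.0961 over all alternatives). The FZD7 rise was lost with knockout library 3 or batch 1 or 3 left out (adjusted p from 0.0542 to 0.0969, with 0.00462 to 0.0969 over all alternatives). The FZD6 difference between rescue and wild type was lost with batch 3 left out (adjusted p = 0.0684, with 0.000189 to 0.0684 over all alternatives).

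FZD3, a receptor of axon guidance, had 1516, 972 and 1043 in wild-type, 997, 746 and 861 in knockout and 1390.4, 1037 and 1391 in rescue libraries. In each group batch 2 is the lowest, and within each batch the knockout library is below the other two. It was not called in the fit without the block (adjusted p = 0.166 in the knockout, adjusted p = 0.0507 in the rescue against it), but was with it (adjusted p = 0.0148 with the replicate block, and adjusted p = 0.00229 for the rescue). The rise in the rescue also passed in 8 other fits, such as log2(CPM + 1) and without batch 2 (adjusted p from 0.00229 to 0.05). FZD1 averaged 606 ± 88.2, 661 ± 14.7 and 678 ± 33.8 in wild type, knockout and rescue, and FZD5 20 ± 9.16, 26.7 ± 9.59 and 42.7 ± 7.78. Neither was called in any comparison, although the 3 FZD5 rescue libraries were above the other 6. FZD4 was not tested, at 2.59 to 12.6 over the 9 libraries.

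Per kilobase of merged exon sequence, FZD2 was the most abundant Frizzled in wild type, at 594 ± 44.8 normalized counts per kilobase. It was followed by FZD1 at 87.1 ± 12.7 and FZD3 at 85.4 ± 21.5, which did not differ beyond their spread. FZD6 followed at 27.1 ± 10.1 and FZD7 at 22.5 ± 7.51, whose libraries also overlapped, then FZD5 at 2.99 ± 1.37 and FZD4 at 0.624 ± 0.241. In the knockout FZD2 stood at 444 ± 38.2 and FZD6 at 4.98 ± 1.49, now beside FZD5 at 3.98 ± 1.43. Merged exons overstate the length of genes with several transcripts, such as FZD3 and FZD6, while FZD1, FZD2, FZD4, FZD5 and FZD7 have 1 annotated transcript each.

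**Figure D3:**
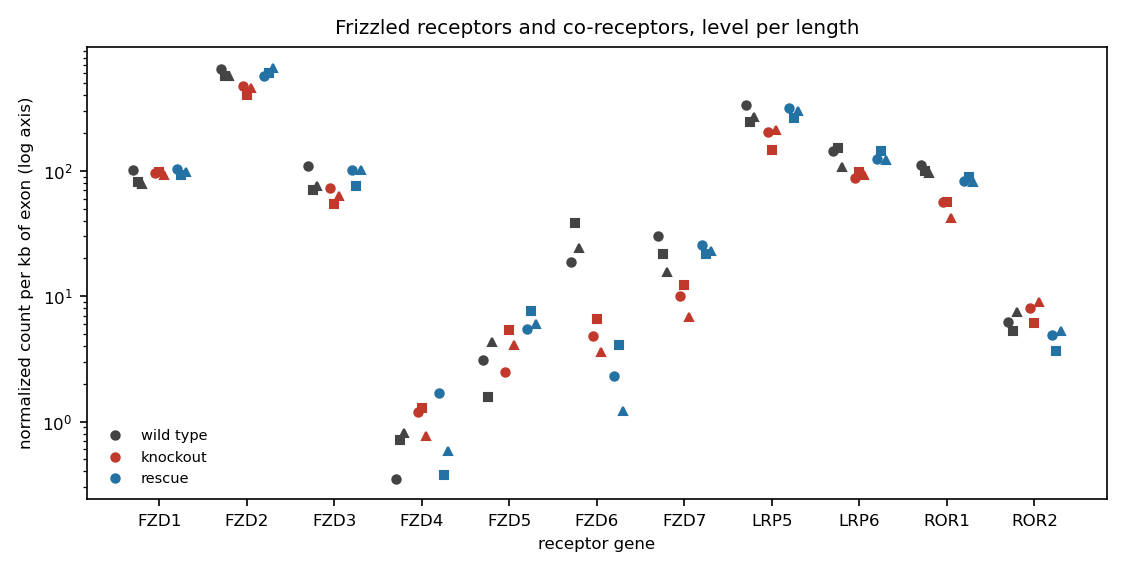
Normalized counts per kilobase of merged exon, on a log axis, for Frizzled receptors and co-receptors in each library (circles, squares and triangles are batches 1, 2 and 3). FZD2 is highest among Frizzleds in the 3 groups, and the knockout points of FZD2, FZD7, LRP5, LRP6 and ROR1 lie below those of wild type and rescue.

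All co-receptors but ROR2 fell in the knockout and rose in the rescue. LRP5, one of the pair of co-receptors for beta-catenin signalling (ENSG00000162337.12, chromosome 11, 68312609 to 68449275, plus strand), had 2049.7, 1506 and 1662 in wild-type, 1257, 896 and 1305 in knockout and 1948, 1635 and 1855 in rescue libraries. LRP6, the other (ENSG00000070018.9, chromosome 12, 12116025 to 12267012, minus strand), had 1482, 1584 and 1103 in wild-type, 909, 1018 and 957 in knockout and 1277, 1477 and 1259 in rescue libraries. For both genes the 3 knockout libraries are the lowest of the 9 and the other groups overlap. LRP5 fell 1.51-fold (adjusted p = 0.0231) and rose 1.57-fold (adjusted p = 0.00855), and LRP6 fell 1.44-fold (adjusted p = 0.0248) and rose 1.39-fold (adjusted p = 0.0252). ROR1, a receptor tyrosine kinase-like protein that binds WNT5A (ENSG00000185483.12, chromosome 1, 63774022 to 64181498, plus strand), was measured at 749.5, 674 and 642 in wild-type, 375, 377 and 282 in knockout and 558, 604 and 552 in rescue libraries. The 3 groups do not overlap: wild type is highest, the rescue lies between, and the knockout is lowest. ROR1 fell 2-fold, by 0.49 (SE 0.0623, adjusted p = 0.000347) on the log2 scale, and rose 1.66-fold in the rescue (adjusted p = 0.00234), reaching 83% of the wild-type mean (adjusted p = 0.28 against wild type). Both ROR1 calls held under every alternative tried. ROR2, its paralog, averaged 37 ± 6.36, 45 ± 8.33 and 26.8 ± 5.06 in wild type, knockout and rescue and was not called, though its rescue libraries were all below the other 6 and it passed as lower than the knockout with quantile normalization (adjusted p = 0.0155). The LRP5 fall lost its call with wild-type library 1, knockout library 2 or batch 1 or 3 left out (adjusted p from 0.0697 to 0.145, with 0.000734 to 0.145 over all alternatives). The LRP6 fall lost it with wild-type library 1 or 2, knockout library 1 or 3 or batch 1 or 2 left out (adjusted p from 0.0663 to 0.284, with 0.00217 to 0.284 over all alternatives). Within batches 1, 2 and 3 the log2 differences were -0.50, -0.49 and -0.24 for LRP5 and -0.46, -0.43 and -0.13 for LRP6. The LRP5 rise in the rescue was lost with batch 3 left out (adjusted p = 0.0763, with 0.000232 to 0.0763 over all alternatives). The LRP6 rise was lost with knockout library 1 or 3, rescue library 2 or batch 1 or 2 left out (adjusted p from 0.0539 to 0.155, with 0.00473 to 0.155 over all alternatives).

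Of the genes that control how long Frizzleds stay on the surface, LGR4 was called and the 2 ubiquitin ligases were not. LGR4, a receptor for R-spondins that protects Frizzleds (ENSG00000205213.14, chromosome 11, 27365961 to 27472775, minus strand), had 65.9, 42.6 and 40.5 in wild-type, 5.35, 10.1 and 2.96 in knockout and 22.7, 35.2 and 48.8 in rescue libraries. The knockout libraries are close to the floor of 3 reads, which is 2.57 to 3.4 normalized counts in these libraries, and the other groups overlap. LGR4 fell 8.1-fold (adjusted p = 0.00208) and rose 5.81-fold in the rescue (adjusted p = 0.00709), to 71.7% of the wild-type mean. It passed the filter on low values through 5 libraries, none of them of the knockout, so its calls depend partly on that filter. The fall held under the 21 alternatives that could be fitted, since LGR4 did not pass the stricter filter, and the rise lost its call with batch 3 left out, or with quantile normalization (adjusted p from 0.0869 to 0.126, with 0.00421 to 0.126 over all alternatives). RNF43, a ligase that removes Frizzleds and is itself a Wnt target, averaged 547 ± 114, 575 ± 95.7 and 539 ± 105 in wild type, knockout and rescue. ZNRF3, its paralog, averaged 465 ± 89, 417 ± 58.7 and 406 ± 56.2. For both, the spread between replicates was larger than the difference between groups (adjusted p = 0.841 and adjusted p = 0.62 in the knockout), and RNF43 shares 57.6% of its exon bases with an overlapping gene on the same strand. Of the extracellular inhibitors listed, APCDD1 was the 1 analysed here. It was not tested, at 3.01 to 8.32 in wild type, 0 to 1.11 in knockout libraries, and 0.513 to 14.7 in the rescue.

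**Figure D4:**
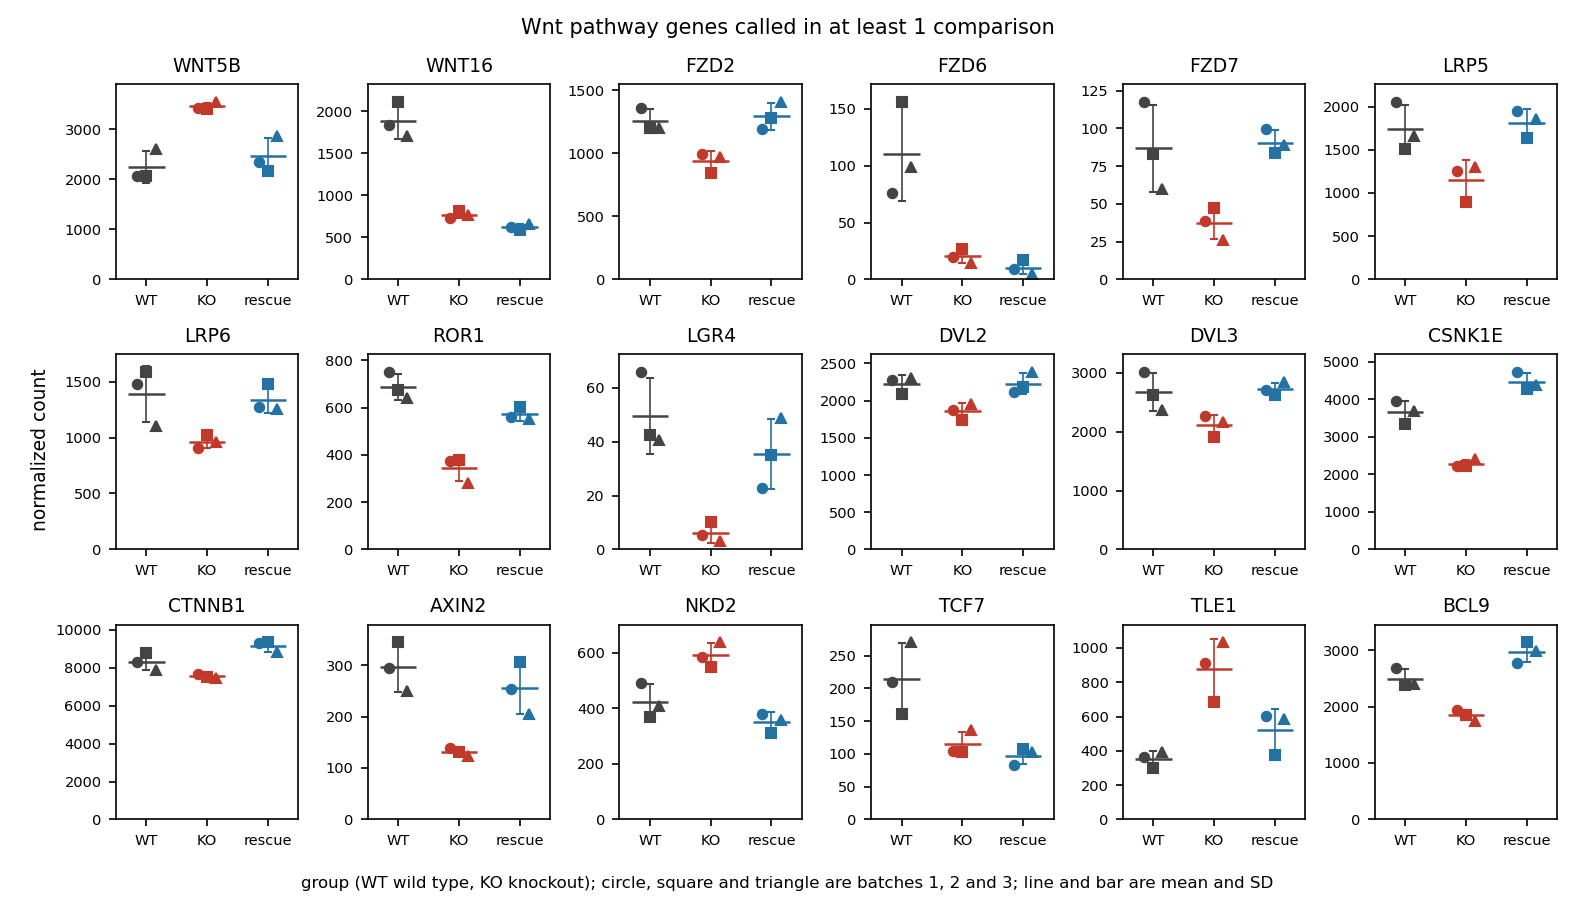
Normalized counts in each library for the 18 Wnt genes called in at least 1 comparison, on linear axes that start at 0. Points are libraries, lines and bars are group means and SDs; in 12 panels the knockout sits lowest and the rescue returns above it, in WNT5B, NKD2 and TLE1 the knockout sits highest, and in WNT16, FZD6 and TCF7 the rescue stays low.

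In the cytoplasm, 3 of the components next to the receptor were called in the knockout and none of APC, AXIN1, GSK3A, GSK3B and CSNK1A1 was. CSNK1E, the kinase casein kinase 1 epsilon that phosphorylates Dishevelled (ENSG00000213923.13, chromosome 22, 38290691 to 38318084, minus strand), had 3946, 3342 and 3702 in wild-type, 2231, 2215 and 2405 in knockout and 4726, 4291 and 4387 in rescue libraries. No group overlaps another, with the knockout lowest and the rescue highest. CSNK1E fell 1.6-fold, by 0.55 (SE 0.061, adjusted p = 0.00013) on the log2 scale, and rose 1.96-fold, by 0.79 (SE 0.061, adjusted p = 6.21e-06), and both calls held under every alternative tried. Its rescue level was 122% of the wild-type mean, a difference close to the threshold (adjusted p = 0.0491) that was lost with wild-type library 2 or 3, any 1 knockout library, any 1 rescue library or any 1 batch left out, or without the filter on low values, with the stricter filter, on log2(CPM + 1), on log2(CPM + 0.25), with median centring, with a constant prior or with only the 2 groups compared (adjusted p from 0.0529 to 0.287, with 0.0127 to 0.287 over all alternatives). A readthrough gene on the same strand shares 21.1% of the CSNK1E exon bases, so the level is less certain than that of other genes.

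Dishevelled proteins carry the signal from the receptor. DVL3 (ENSG00000161202.20, chromosome 3, 184155311 to 184173614, plus strand) had 3008, 2629 and 2371 in wild-type, 2256, 1905 and 2159 in knockout and 2702, 2622 and 2842 in rescue libraries, and DVL2 (ENSG00000004975.12, chromosome 17, 7225341 to 7234545, minus strand) had 2282, 2095 and 2302 in wild-type, 1879, 1739.8 and 1953 in knockout and 2117, 2181 and 2381 in rescue libraries. In both the knockout libraries are the lowest 3, by a small margin. DVL3 fell 1.27-fold (adjusted p = 0.0375) and rose 1.29-fold (adjusted p = 0.0159), and DVL2 fell 1.2-fold (adjusted p = 0.0437) and rose 1.2-fold (adjusted p = 0.0295). DVL1 averaged 968 ± 166, 887 ± 121 and 825 ± 159.5 in wild type, knockout and rescue and was not called (adjusted p = 0.7 in the knockout). The DVL2 fall was lost with wild-type library 1 or 3, any 1 knockout library, rescue library 1 or 2 or any 1 batch left out, or without the filter on low values, on log2(CPM + 1), on log2(CPM + 0.25) or with only the 2 groups compared (adjusted p from 0.0538 to 0.28, with 0.0107 to 0.28 over all alternatives). The DVL3 fall was lost with wild-type library 1 or 2, any 1 knockout library, rescue library 1 or 3 or any 1 batch left out, or with only the 2 groups compared (adjusted p from 0.0515 to 0.193, with 0.013 to 0.193 over all alternatives). Within batches 1, 2 and 3 the log2 differences were -0.21, -0.20 and -0.18 for DVL2 and -0.33, -0.36 and -0.10 for DVL3, so both were lower in each batch. The DVL2 rise in the rescue was lost with knockout library 1 or 2, rescue library 2 or 3 or any 1 batch left out (adjusted p from 0.0618 to 0.158, with 0.00717 to 0.158 over all alternatives). The DVL3 rise was lost with knockout library 2, rescue library 3 or batch 2 or 3 left out (adjusted p from 0.0605 to 0.106, with 0.00526 to 0.106 over all alternatives).

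CTNNB1, which encodes beta-catenin (ENSG00000168036.18, chromosome 3, 41194741 to 41260096, plus strand), had 8329, 8786 and 7877 in wild-type, 7668, 7536 and 7458 in knockout and 9289, 9351 and 8814 in rescue libraries. The knockout libraries are the lowest and the rescue libraries the highest. CTNNB1 was 1.21-fold higher in the rescue than in the knockout (adjusted p = 0.0042), a call lost with batch 1 left out (adjusted p = 0.0741, with 0.000926 to 0.0741 over all alternatives). Its knockout level of 90.7% of wild type did not pass without the block (adjusted p = 0.126) and did with it or with quantile normalization (adjusted p from 0.0448 to 0.0463; 0.0448 to 0.404 over all alternatives). The scaffolds APC and AXIN1 and the kinases GSK3A, GSK3B and CSNK1A1, which together mark beta-catenin for destruction, were called in no comparison, also with the block. Their knockout means were 95.7%, 101%, 97.5%, 88.1% and 98.1% of wild type, in that order. GSK3B was the lowest of these, and its knockout libraries (2121, 1889.8 and 2085) were all below those of wild type (2333, 2158 and 2430.3), with adjusted p = 0.191.

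Feedback inhibitors moved in opposite directions. AXIN2, a scaffold of the destruction complex that beta-catenin and TCF factors induce and that is widely read as a marker of the pathway (ENSG00000168646.13, chromosome 17, 65528563 to 65561647, minus strand), had 295, 345 and 249 in wild-type, 139, 132 and 123 in knockout and 254, 307 and 205 in rescue libraries. The knockout libraries are the lowest and close to each other, while wild type and rescue overlap. A gene model on the same strand shares 25.2% of its exon bases. AXIN2 fell 2.26-fold, by 0.39 (SE 0.0655, adjusted p = 0.0022) on the log2 scale, and rose 1.95-fold in the rescue (adjusted p = 0.00622). Without batch 1 both calls were lost: in the knockout (adjusted p = 0.0516, with 0.000341 to 0.0516 over all alternatives) and in the rescue (adjusted p = 0.0722, with 0.00106 to 0.0722 over all alternatives). NKD2, which binds Dishevelled and dampens the signal (ENSG00000145506.14, chromosome 5, 1008829 to 1038943, plus strand), had 492, 368 and 409.7 in wild-type, 586, 550.1 and 638 in knockout and 381, 312 and 358 in rescue libraries. Its knockout libraries are the highest 3: NKD2 rose 1.4-fold (adjusted p = 0.0287) and fell 1.69-fold in the rescue (adjusted p = 0.002). The first call was lost with wild-type library 2 or 3, knockout library 1 or 3 or any 1 batch left out, or with only the 2 groups compared (adjusted p from 0.0531 to 0.26, with 0.00719 to 0.26 over all alternatives). The second was lost with batch 3 left out (adjusted p = 0.064, with 0.000413 to 0.064 over all alternatives). NKD1, the related inhibitor and a Wnt target, was too low to be tested. It was read at 0, 0.609 and 0.574 in wild-type, 0, 1.83 and 0.657 in knockout and 64.2, 14.7 and 4.37 in rescue libraries, so that the 6 libraries without returned SOX11 were at or below the floor of 3 reads and rescue replicate 1 held most of the signal.

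Of the nuclear effectors, BCL9 and TLE1 changed in opposite directions, and TCF7 fell and did not return. BCL9, which ties beta-catenin to Pygopus proteins (ENSG00000116128.11, chromosome 1, 147541412 to 147626216, plus strand), had 2691, 2383 and 2407 in wild-type, 1931, 1859 and 1751 in knockout and 2781, 3141 and 2982 in rescue libraries. The 3 groups do not overlap, with the rescue highest. BCL9 fell 1.35-fold (adjusted p = 0.00331) and rose 1.61-fold, by 0.53 (SE 0.0586, adjusted p = 8.35e-05) on the log2 scale. The rescue stood at 119% of wild type (adjusted p = 0.0952). TLE1, a Groucho co-repressor that TCF factors recruit when beta-catenin is absent (ENSG00000196781.16, chromosome 9, 81583683 to 81689305, minus strand), had 362, 301 and 395 in wild-type, 911, 685 and 1033 in knockout and 602, 375 and 583 in rescue libraries. All knockout libraries are above the other 6, and the rescue overlaps wild type from above. TLE1 rose 2.48-fold, by 0.67 (SE 0.104, adjusted p = 0.00139), and fell 1.68-fold in the rescue (adjusted p = 0.015). It remained at 147% of the wild-type mean in the rescue, which passed with the replicate block or without batch 2 (adjusted p from 0.0194 to 0.0446) and not in the fit of all libraries without the block (adjusted p = 0.249; 0.0194 to 0.656 over all alternatives). TCF7, a DNA-binding factor of the pathway that is best known in T cells (ENSG00000081059.20, chromosome 5, 134114711 to 134151865, plus strand), had 209.9, 161 and 271 in wild-type, 105, 103 and 136 in knockout and 82.5, 107 and 102 in rescue libraries. The wild-type libraries are the highest 3, and knockout and rescue overlap. TCF7 fell 1.86-fold in the knockout (adjusted p = 0.0213) and was 2.2-fold lower than wild type in the rescue (adjusted p = 0.018). The BCL9 fall was lost with batch 3 left out (adjusted p = 0.0741, with 0.00199 to 0.0741 over all alternatives). The TLE1 fall in the rescue was lost with knockout library 1 or 3, rescue library 2 or batch 1 or 3 left out (adjusted p from 0.0531 to 0.123, with 0.000301 to 0.123 over all alternatives). The BCL9 rise and the TLE1 rise held under every alternative tried. The TCF7 fall in the knockout was lost with wild-type library 1 or 3, knockout library 1 or 2 or batch 1 or 3 left out (adjusted p from 0.0559 to 0.195, with 0.00602 to 0.195 over all alternatives). The difference of TCF7 between rescue and wild type was lost with wild-type library 1 or 3, rescue library 1 or 3 or batch 1 or 3 left out (adjusted p from 0.0516 to 0.229, with 0.00556 to 0.229 over all alternatives).

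The other DNA-binding factors and cofactors gave smaller differences. LEF1, the most abundant factor of this family here, at 612 ± 94.1 normalized counts per kilobase in wild type against 61.3 ± 6.15 for TCF7L2 and 21.2 ± 5.46 for TCF7, had 3439, 2718 and 3689.9 in wild-type, 4522, 3556 and 4062 in knockout and 3734, 2915 and 3008 in rescue libraries. Batch 2 is the lowest in each group, and within each batch the knockout library is the highest. LEF1 was called higher in the knockout and lower in the rescue with the replicate block (adjusted p = 0.0155 and 0.00707) and not in the fit of all libraries without it (adjusted p = 0.154 and 0.092). The fall in the rescue also passed without wild-type library 2, rescue library 1 or batch 2 (adjusted p from 0.00707 to 0.0453 over these and the block). TLE3, a co-repressor like TLE1, went the other way, with 3091, 3929 and 3099 in wild-type, 2699.8, 2485 and 2227 in knockout and 2971, 4142 and 2912 in rescue libraries. Its knockout libraries are the lowest 3, and it passed with the block in the knockout and in the rescue against it (adjusted p = 0.00829 and 0.00728) and missed in the fit of all libraries without it (adjusted p = 0.0641 and 0.0547). Other fits also passed, 3 for the fall and 5 for the rise, with adjusted p from 0.00829 to 0.0484 and adjusted p from 0.00728 to 0.0495, the block included. BCL9L, the paralog of BCL9, averaged 449 ± 113, 567 ± 136 and 389 ± 30.1 in wild type, knockout and rescue, and was not called in the fit of all libraries (adjusted p = 0.0886 for the rescue against the knockout). It passed as lower in that comparison with the block, with quantile normalization and without knockout library 2 or batch 2 (adjusted p from 0.0187 to 0.0491). A gene on the opposite strand shares 37.5% of its exon bases, so its level is uncertain. TLE4, TCF7L2 and PYGO2 were called in no comparison with or without the block, and TCF7L1 was not tested, at 6.98 to 18.9 in wild type.

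**Figure D5:**
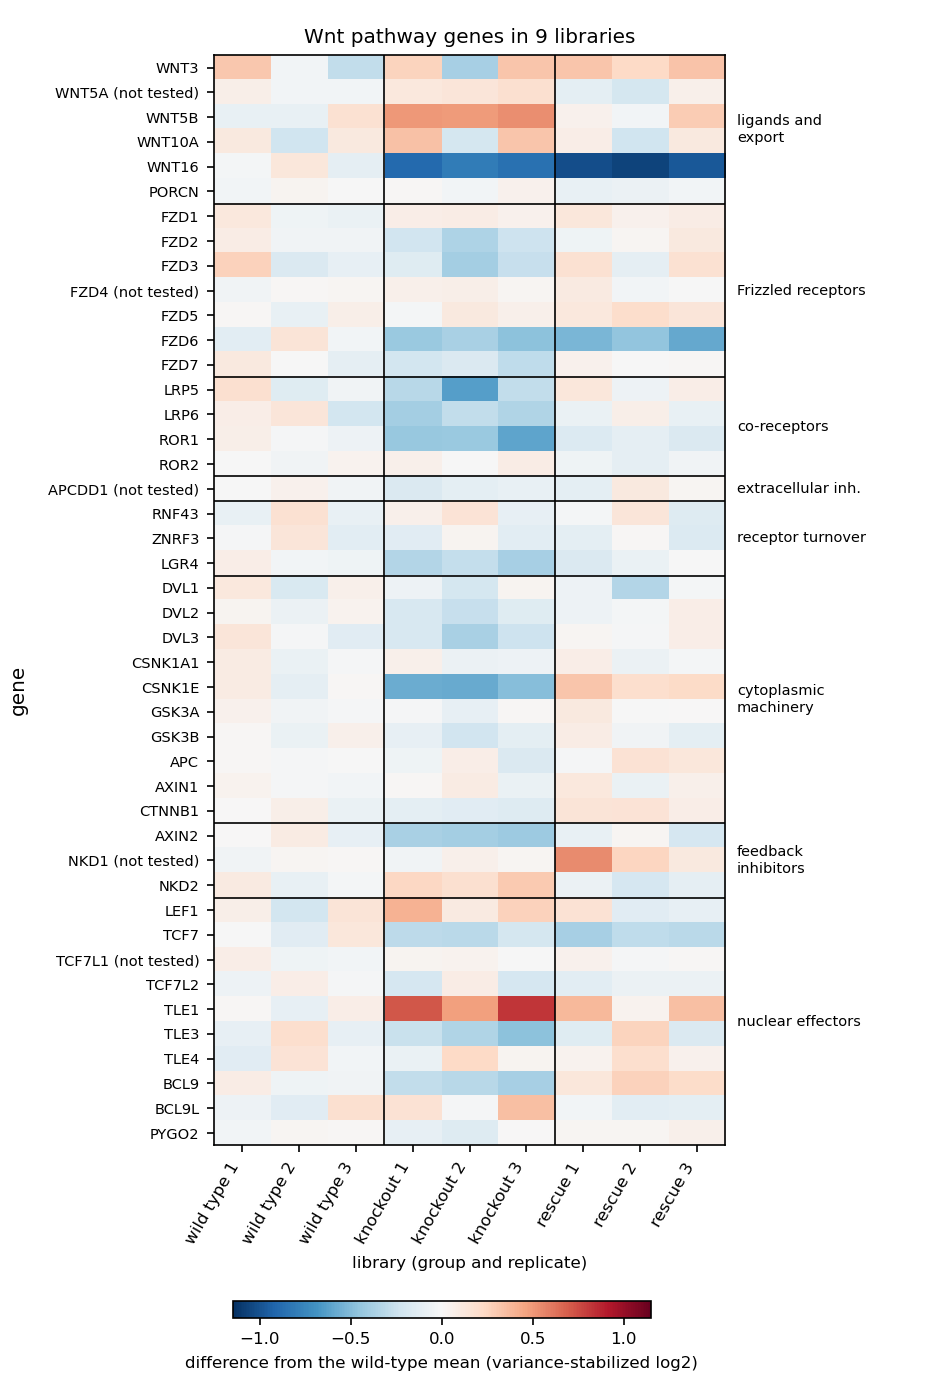
Difference of each library from the wild-type mean, on the deposited log2 scale (blue lower, red higher), for the 44 Wnt genes in the table, grouped by role. The knockout columns are blue in FZD2, FZD6, FZD7, LRP5, LRP6, ROR1, LGR4, CSNK1E, AXIN2 and BCL9, and red in WNT5B, NKD2 and TLE1; WNT16 and FZD6 stay blue in the rescue columns.

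Side by side over the 3 groups, the 18 called genes fall into few patterns. FZD2, FZD7, LRP5, LRP6, ROR1, LGR4, DVL2, DVL3, AXIN2 and BCL9 were lower in the knockout, higher in the rescue than in the knockout, and not called between rescue and wild type, and CSNK1E differs from them by its call above wild type. WNT5B, NKD2 and TLE1 show the same pattern with the signs exchanged. These 14 genes stood at 71.7% (LGR4) to 147% (TLE1) of the wild-type mean in the rescue, although SOX11 itself was at 369.8%. WNT16, FZD6 and TCF7 were lower than wild type in both edited groups, and CTNNB1 was called in the rescue against the knockout alone. Lower genes kept between 12.3% (LGR4) and 83.4% (DVL2) of their wild-type mean in the knockout. For WNT16, FZD6 and TCF7 the rescue mean was below the knockout mean, although that difference was called for none of the 3 genes.

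A second list of 124 other Wnt pathway genes was read in the same way, with 96 in the table and 77 tested. In the knockout 11 were lower and 5 higher, which is 14.3% and 6.49%, and in the rescue against the knockout 16 were higher and 6 lower, which is 20.8% and 7.79%. The background was 7.37% lower and 5.36% higher in the knockout, and 11.5% higher and 10.7% lower in the rescue against it. The 2 genes called between rescue and wild type were both lower, 2.6% against a background of 1.78%. PTK7, a co-receptor of the planar polarity branch, had 1024, 692 and 833 in wild-type, 262, 223 and 248 in knockout and 689, 665 and 810.1 in rescue libraries, and VANGL2, a core polarity protein, had 1055, 870.0 and 1137 in wild-type, 674, 567 and 679 in knockout and 1325, 1350.4 and 1389.8 in rescue libraries. Both have their 3 lowest libraries in the knockout: PTK7 fell 3.48-fold (adjusted p = 4.15e-05) and rose 2.95-fold (adjusted p = 8.66e-05), and VANGL2 fell 1.59-fold (adjusted p = 0.00292) and rose 2.12-fold (adjusted p = 4.78e-05). VANGL2 was at 133% of wild type in the rescue, just short of the threshold (adjusted p = 0.0509) and past it with the block (adjusted p = 0.0113). CTBP2, a co-repressor, fell 2.31-fold (adjusted p = 0.00012), and the target TNFRSF19 fell 2.11-fold (adjusted p = 0.000463) and rose 2.23-fold (adjusted p = 0.000166).

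The remaining genes with the smallest adjusted p in this second list cover both arms of the pathway. TBL1X, a beta-catenin cofactor, fell 1.59-fold and PPP2R5C, a phosphatase subunit, by 0.29 on the log2 scale in the knockout, while SERPINF1, a secreted protein that can bind LRP6, rose 1.44-fold (adjusted p = 0.00147, 0.00194 and 0.00201). MAPK8, the kinase JNK1 of the polarity branch, rose 1.52-fold and DACT1, which binds Dishevelled, 2.79-fold in the rescue against the knockout (adjusted p = 0.000321 and 0.000419). The target MYC did not share the pattern of AXIN2: it stood at 35514 ± 1230.4 in wild type and at 39721 ± 1806 in knockout libraries, where it was not called (adjusted p = 0.12). In the rescue MYC fell to 27639.9 ± 1957, 1.44-fold lower than the knockout (adjusted p = 0.000135) and 1.28-fold lower than wild type (adjusted p = 0.00699). CCND1, a Wnt target elsewhere and driven by a translocation in mantle cell lymphoma, was 1.19-fold lower in the rescue than in wild type (adjusted p = 0.0411). For CTNNBIP1, an inhibitor of beta-catenin, and the polarity gene CELSR3, the rescue against wild type gave adjusted p = 0.0698 and 0.0767, and for DACT1 0.0862. CELSR3 averaged 133 ± 17.2, 67.3 ± 14.1 and 80.2 ± 10.4 in wild type, knockout and rescue. It was called lower in the knockout (adjusted p = 0.00917) and was not called in the rescue against the knockout (adjusted p = 0.481).

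The line was checked against markers of its type. All 9 markers of the B lineage and of mantle cell lymphoma were tested, and their summed normalized counts ranged from 175318 to 196480 in wild type, 164429 to 179464 in the knockout and 167459 to 176166 in the rescue. Most of that sum is CCND1, at 128819 ± 7829.9, 121398 ± 4772 and 107938 ± 2575 in wild type, knockout and rescue. SOX11, the edited gene, is also part of the sum. It was at 3003 to 3845 in wild-type, 862 to 1335 in knockout and 12715 to 13849 in rescue libraries. Returned SOX11 therefore raises the rescue sums, and the ranges do not show that the other markers kept their level. The B cell factor PAX5 was at 10832 ± 3013, 7474 ± 1867 and 12363 ± 2230.3 in wild type, knockout and rescue, with the knockout lowest, as for 12 of the 18 called Wnt genes. It was called higher in the rescue against the knockout (adjusted p = 0.0231), and its knockout level passed as lower than wild type in the blocked fit (adjusted p = 0.00011) but not in the unblocked one (adjusted p = 0.12). EBF1 and CD79B, with knockout means of 77% and 85.9% of wild type, were lower in the knockout with the block (adjusted p = 0.00156 and 0.0316) and not without it (adjusted p = 0.0618 and 0.0896). The part of these markers in the Wnt values was not tested.

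Since TCF7 and LEF1 are also T cell genes, T and NK cell markers are given beside them. Of 9 markers 8 are in the table, summing to 619 to 789.8 in wild type, 1747 to 1822 in the knockout and 1211 to 1364 in the rescue. Of 5 tested markers 4 were higher in the knockout, against a background of 5.36% of all tested genes. In the rescue 3 of the 5 (CD3E, CD4 and PRF1) were higher than in wild type, against a background of 2.3%. Against the knockout 1 of the 5, CD4, was lower in the rescue, with a background of 10.7%. CD4 was at 179 ± 6.03, 846 ± 37.5 and 362 ± 28.9 in wild type, knockout and rescue, and PRF1 at 95.8 ± 21.5, 314 ± 69.8 and 422 ± 51.1. CD3E was at 37 ± 1.68, 83.2 ± 13.7 and 79.9 ± 10.2, and NKG7 at 12.6 ± 3.87, 43 ± 3.14 and 28.5 ± 7.44. NKG7 passed the filter on low values through 4 libraries, none of them wild type, so its call depends partly on that filter. CD3G, at 376 ± 73.1, 497 ± 53.2 and 390.2 ± 1.52, was not called without the block (adjusted p = 0.0928 in the knockout, and 0.0484 with it). CD3D, CD8A and GNLY were too low to be tested, with knockout means of 2.24, 1.49 and 1.03 against 3.51, 11.6 and 2.67 in wild type. The part of these markers in the TCF7 and LEF1 values was not tested. Myeloid markers summed to at most 56.5 in any library. Stromal and epithelial markers summed to 965 to 1346 in wild type, 1049 to 1357 in the knockout and 783 to 1010 in the rescue, nearly all from COL1A1, which was called lower in the rescue against the knockout (adjusted p = 0.0244).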

How the data were processed

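RNA of 9 Z138 libraries was measured by RNA-seq. Per the labels' protocols, libraries came from either of 2 Illumina TruSeq kits, 1 of them stranded, and were read from 1 or both ends; the sources used here do not say which library used which. The submitters' processing notes name Trimmomatic 0.40, kallisto 0.46.1, DESeq2 1.24.0 and GRCh38.p13. The authors deposited 1 table of log2 values; its name says log CPM, but the values fit a variance-stabilized log2 scale with a lowest value of 8.60. This was settled from the values: inverting that scale gave normalized counts that are whole multiples of 1 read's worth (within 0.05 of a step) for 83.8% to 98.5% of low single-transcript genes, and 43.8% to 51.1% over all low genes. A step fixed in advance would give 10% by chance. The step was chosen in each library to give the highest percentage for single-transcript genes, so 10% is too low a chance level for them. Depth (30800000 to 40800000 reads) and a floor of 3 reads per library were estimated from that step and cover counting error only.

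CPM was each gene's share of a library's normalized counts. The 11542 genes that reached a CPM of 1 in 3 or more libraries were tested (5044 left out) on the deposited log2 values with limma 3.58.1 (R 4.3.3), with a trended prior and all 9 libraries, two-sided, with Benjamini-Hochberg adjustment over all tested genes and a threshold of 0.05. The script was tested on simulated data for the knockout against wild type, with libraries drawn independently and without batches, unlike the libraries here. The labels give each replicate number its own batch, so numbers pair libraries; same-numbered libraries deviated together from their group means (correlation 0.187 to 0.51, against -0.387 to 0.159 for other pairs). The fit with the replicate block, other filters, scalings, priors and log2(CPM + 1) or log2(CPM + 0.25), and leaving out each library and batch were the alternatives. The members and gene lists were chosen with earlier results of these data known. Named genes are the members called in at least 1 comparison with or without the block, and of the other pathway genes the 6 with the smallest adjusted p per comparison. The promoters printed were narrowed after values were seen. Overlaps of exons and exon lengths came from GENCODE release 29; kallisto assigns reads to transcripts, so genes that share exons are less certain.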

Additional observations from a re-analysis of the deposited data

How the results depend on the processing

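No call of a Wnt gene changed sign under any alternative tried; of 36 called gene and comparison pairs 10 kept their call under all that could be fitted, and 26 lost it under at least 1, 10 of these only without a batch. Over all genes, the knockout against wild type gave 1470 calls, 2481 with the replicate block and 574 to 1395 with libraries or batches left out. The rescue against the knockout gave 2556, 3601 with the block, and 993 to 2970 with libraries or batches left out. The rescue against wild type gave 470, 930 with the block, and 111 to 427 with libraries or batches left out. Among the Wnt genes, leaving out libraries or batches gave 6 to 14 lower and 1 to 3 higher in the knockout, 6 to 14 higher and 1 to 6 lower in the rescue against the knockout, and 0 to 1 higher and 1 to 3 lower in the rescue against wild type. The count of lower genes in the rescue against the knockout was 6 with the replicate block and 6 with quantile normalization. The count of higher genes in the rescue against wild type was 2 with the block and 0 without the filter, with the stricter filter, on log2(CPM + 1), on log2(CPM + 0.25), with median centring, with a constant prior and with only the 2 groups compared; CSNK1E lies at the threshold there. The stricter filter left out WNT3, FZD5, FZD6, FZD7, ROR2 and LGR4, which have no value there. Beyond the values given beside single genes the block changed no other Wnt call. Where a fit holds fewer libraries it has less power; other causes were not tested. Of the 81 uncalled pairs 14 gained a call under some alternative. Scaling moved the median log2 difference of all tested genes by at most 0.0161. With 3 libraries per group, genes near the floor of 3 reads (LGR4 in the knockout, NKD1, APCDD1, FZD4) are limited by depth.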
